A study of Mus musculus with 8 samples.

Results

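The genes described here are 8 regulators tied to the quiescence of naive T cells: Btg1, Btg2, Tob1, Tob2, Foxp1, Foxj1 and Vsir, which hold resting T cells back from growth and division, and Myc, the growth factor they are set against. They were chosen by name, for their known roles, from the 47937 genes of the counts table. CD8 single-positive (CD8SP) TCRb+ MHC-I high thymocytes, the mature stage that is about to leave the thymus, were sorted from mice aged 6 to 7 weeks, and their RNA was sequenced. Both groups carried the Lck-cre transgene, whose proximal Lck promoter acts from an early thymocyte stage. The 4 Ndrg3 control mice (Ndrg3 +/fl;Lck-cre+) kept 1 wild-type allele of Ndrg3, and the 4 Ndrg3 knockout mice (Ndrg3 fl/fl;Lck-cre+) had both alleles floxed. There was 1 library per mouse, no treatment was applied, and the labels name no sex.

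A resting T cell is kept small, with little translation and division, by programs that have to be held active rather than by the mere absence of antigen. Btg1, Btg2, Tob1 and Tob2 belong to one family of antiproliferative proteins that bind the CCR4-NOT complex and speed the removal of poly(A) tails, which shortens the life of messenger RNAs. Foxp1 and Foxj1 are forkhead transcription factors needed to keep naive T cells from becoming activated, and Vsir encodes VISTA, a checkpoint receptor on resting T cells. Myc drives ribosome production, nutrient uptake and cell cycle entry once a T cell is stimulated.

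The deletion was visible in every library. Ndrg3 stood at 79.3, 81.5, 81.2 and 80.9 normalized CPM (counts scaled to the library total with TMM factors) in control replicates 1 to 4. In knockout replicates 1 to 4 it stood at 50.4, 48.4, 53.1 and 55.3. All 4 knockout libraries lay below all 4 controls, and the log2 fold change of knockout over control was -0.64 (SE 0.0526; adjusted p = 1.04e-05, edgeR quasi-likelihood test with Benjamini-Hochberg adjustment over 14633 tested genes). The floxed allele loses a single exon, and the counts are summed over all exons of the gene.

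The libraries held 21126698 to 32668081 counts. Across all tested genes 168 passed an adjusted p of 0.05, which is 1.15% of them, with 116 higher in the knockout (0.793%) and 52 lower (0.355%). All 10 defining markers of mature CD8 T cells were detected, with summed levels of 7497 to 8605 CPM in control and 7702 to 8363 CPM in knockout libraries. None was called, but within the list Ccr7 and S1pr1, a homing receptor and an exit receptor of mature cells, had log2 fold changes of -0.26 and -0.19 (unadjusted p = 0.00305 and 0.00676, adjusted p = 0.135 and 0.203, edgeR), and both were called lower with the Y-linked covariate described below. Of 6 gamma delta and NKT markers, 3 passed the filter and Tcrg-C1 was called higher. The summed level of these markers was 13.6 to 17.2 CPM in control and 19.6 to 27.4 CPM in knockout libraries. The higher sum came from Tcrg-C1 (0.700 ± 0.290 and 4.65 ± 0.831 CPM) and Cd163l1 (2.24 ± 0.900 and 6.37 ± 3.40 CPM; SD, n = 4), while Trdc stood at 12.1 ± 1.71 and 11.9 ± 1.55 CPM. Cd163l1 was not called (log2 fold change 1.49, adjusted p = 0.216, edgeR), but it was called higher with the Y-linked covariate (log2 fold change 1.75, adjusted p = 0.000712, edgeR). Sox13 and the NKT factor gene Zbtb16, at 0.286 and 0.245 CPM in control, had lower means of 0.167 and 0.0558 CPM in knockout libraries, without a test because they did not pass the filter. The part of these genes in any result below was not tested. In these bulk samples, fewer cells of a type and less RNA per cell cannot be told apart. Immature double-positive thymocyte markers summed to 52.0 to 62.4 and 51.4 to 63.7 CPM, myeloid markers to 5.26 to 6.55 and 5.73 to 6.08 CPM, and red cell markers to at most 0.232 CPM. Of the 5 immature markers tested, 2 had a positive and 3 a negative log2 fold change, and none was called. The Dntt groups did not overlap, at 14.2 to 18.7 and 19.2 to 25.4 CPM (log2 fold change 0.45, adjusted p = 0.0783, edgeR). Dntt was called higher with DESeq2 (adjusted p = 0.0146) and with the Y-linked covariate (adjusted p = 0.0271, edgeR). B cell markers summed to 266 to 314 and 276 to 323 CPM, nearly all from Ighm, and Ms4a1 was at 0 in every library. Cd79b (11.8 ± 1.10 and 8.73 ± 0.528 CPM; adjusted p = 0.0529, edgeR) and Cd74 (16.1 ± 3.12 and 12.9 ± 1.22 CPM; adjusted p = 0.377) had lower means in the knockout. The Cd79b groups did not overlap, and Cd79b was called lower with DESeq2 (adjusted p = 0.00515). Counts from 4 Y-linked genes were present in control replicate 2 and knockout replicates 2 and 3, and were near 0 in the other 5 libraries, so that sex was split 1 of 4 against 2 of 4 between the groups.

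Upstream sequences are shown for Btg1, because it was the highest of the genes by TPM, and for Btg2 and Tob1, because these were the pair that varied together most closely over the libraries. Each is the 250 bases before the RefSeq start site, 5′ to 3′ on the gene's own strand (GRCm38.p6), in lower case with matches to 5 motifs on either strand in capitals. The motifs are the cAMP response element (TGACGTCA), the GC box (GGGCGG), the CCAAT box (CCAAT), the E-box bound by MYC and MAX (CACGTG) and the TATA box (TATAAA). Where matches overlap, the capitals run together.
Btg1 (chr10:96616751-96617000, plus strand): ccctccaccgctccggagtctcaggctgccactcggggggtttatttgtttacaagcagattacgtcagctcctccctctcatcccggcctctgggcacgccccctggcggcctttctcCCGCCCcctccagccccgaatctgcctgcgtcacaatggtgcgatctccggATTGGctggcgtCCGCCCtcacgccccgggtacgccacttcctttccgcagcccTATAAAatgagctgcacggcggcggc
Btg2 (chr1:134079156-134079405, minus strand): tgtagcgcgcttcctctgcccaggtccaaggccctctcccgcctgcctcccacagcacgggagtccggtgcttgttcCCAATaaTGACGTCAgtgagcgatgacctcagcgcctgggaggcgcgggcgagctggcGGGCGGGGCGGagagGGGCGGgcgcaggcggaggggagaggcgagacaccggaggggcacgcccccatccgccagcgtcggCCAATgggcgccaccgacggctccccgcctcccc
Tob1 (chr11:94211204-94211453, plus strand): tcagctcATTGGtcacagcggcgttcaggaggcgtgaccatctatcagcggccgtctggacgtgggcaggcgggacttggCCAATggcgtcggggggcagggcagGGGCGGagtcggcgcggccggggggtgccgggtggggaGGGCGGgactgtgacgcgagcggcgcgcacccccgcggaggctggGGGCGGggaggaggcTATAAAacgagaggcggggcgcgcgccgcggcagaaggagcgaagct
Btg2 held 1 cAMP response element, starting 166 bases before the start site, and the motif was present in 1.55% of 32851 promoters of this length. Btg2 and Tob1 each held 3 GC boxes and 2 CCAAT boxes, and Btg1 held 2 and 1, where 32.7% and 33.8% of all promoters held at least 1. Btg1 and Tob1 had a TATA box at 26 and 47 bases before the start (12.4% of promoters), and none of the 3 had an E-box (6.02% of promoters). These are letter matches and say nothing of binding. RefSeq promoters were matched for 6 of the 8 genes, all but Foxj1 and Myc.

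The quiescence regulators ranged from among the highest genes of these cells to barely detected. In TPM, a level per exonic length, averaged over the 8 libraries, Btg1 came first at 607, followed by Vsir at 278, Btg2 at 261, Myc at 151, Foxp1 at 118, Tob2 at 53.7, Tob1 at 30.9 and Foxj1 at 0.159. Btg1 lay at the 98.8th percentile of tested genes by level with Vsir at the 96.7th, Btg2 at the 96.5th, Foxp1 at the 90.8th, Tob2 at the 76.6th and Tob1 at the 61.5th. Between neighbours in this order, the ranges over the 8 libraries overlapped for Vsir and Btg2 (lowest Vsir 256 TPM, highest Btg2 289 TPM) and for Myc and Foxp1 (lowest Myc 129 TPM, highest Foxp1 130.2 TPM). The other neighbours did not overlap, and Btg1 was 2.19 times the next gene.

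**Figure D1:**
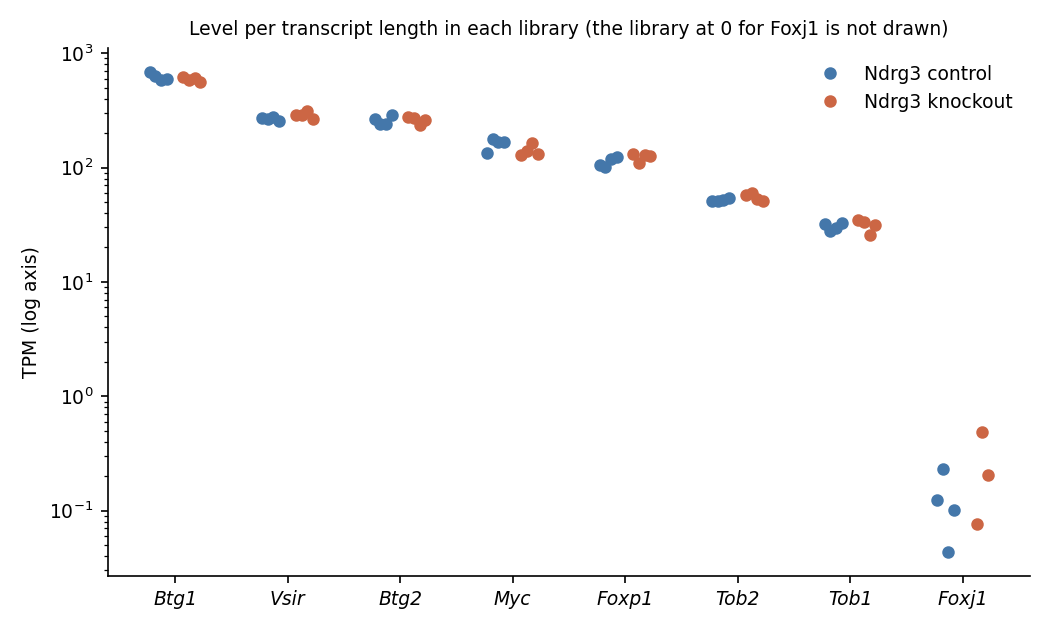
Level of each gene in TPM (log axis) in each of the 4 Ndrg3 control (blue) and 4 Ndrg3 knockout (orange) libraries, ordered by mean. Btg1 leads at 607 TPM, Foxj1 lies at 0.159 TPM, and the symbols of the 2 groups are intermingled or adjacent for each gene.

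None of the 7 genes that could be tested was called between the genotypes, against 1.15% of all tested genes, and in all 8 genes the control and knockout values overlapped. Groups that did not overlap were found in 7.04% of tested genes. At an unadjusted p under 0.05 there were 2 of the 7, Foxp1 (higher) and Myc (lower), against 10.9% of all tested genes. The intervals of the fold change were narrow for several of them, so that the data limit how large a change could have been.

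Among the BTG/TOB family, Btg1 (ENSMUSG00000036478.7, chr10:96617006-96622809) stood at 1132, 1079.8, 905 and 857 CPM in control replicates 1 to 4. In the knockout replicates it stood at 959.7, 963, 913 and 838 CPM. The lowest library was a knockout and the top pair were controls, but the control libraries spanned more than the knockouts, with a mean of 994 ± 133 CPM (SD, n = 4) against 918 ± 58.0 CPM. The fold of knockout over control was 0.924 (95% interval 0.810 to 1.05; adjusted p = 0.690, edgeR; exact permutation p = 0.343, 2-sided, where 70 splits allow no p under 0.0286).

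Btg2 (ENSMUSG00000020423.6, chr1:134075170-134079120), which is also an immediate-early and p53-responsive gene, stood at 229, 213, 195 and 218 CPM in control libraries. It stood at 223, 233, 185 and 205 CPM in knockout libraries, which held both the highest and the lowest value. The means were 214 ± 14.5 and 212 ± 21.3 CPM (SD, n = 4), and the fold was 0.990 (95% interval 0.890 to 1.10; adjusted p = 0.963, edgeR).

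Tob1 (ENSMUSG00000037573.5, chr11:94211454-94215495) followed at a lower level. It stood at 22.7, 20.7, 20.1 and 20.8 CPM in control and 23.3, 23.9, 16.8 and 20.5 CPM in knockout replicates 1 to 4. Knockout replicate 3 was the lowest library for Tob1 and for Btg2, and the fold of Tob1 was 1.00 (95% interval 0.863 to 1.16; adjusted p = 0.996, edgeR).

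Tob2 (ENSMUSG00000048546.7, chr15:81848272-81858796), the paralogue of Tob1, stood at 106, 110.2, 102 and 100.1 CPM in control libraries. In knockout libraries it stood at 112, 124, 101 and 97.3 CPM, so that the knockouts again took both ends of the range. The fold was 1.04 (95% interval 0.938 to 1.15; adjusted p = 0.823, edgeR). Within-group coefficients of variation in knockout libraries were 15.4% for Tob1 and 11.1% for Tob2, against 5.40% and 4.19% in control libraries. The difference in spread was not tested.

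**Figure D2:**
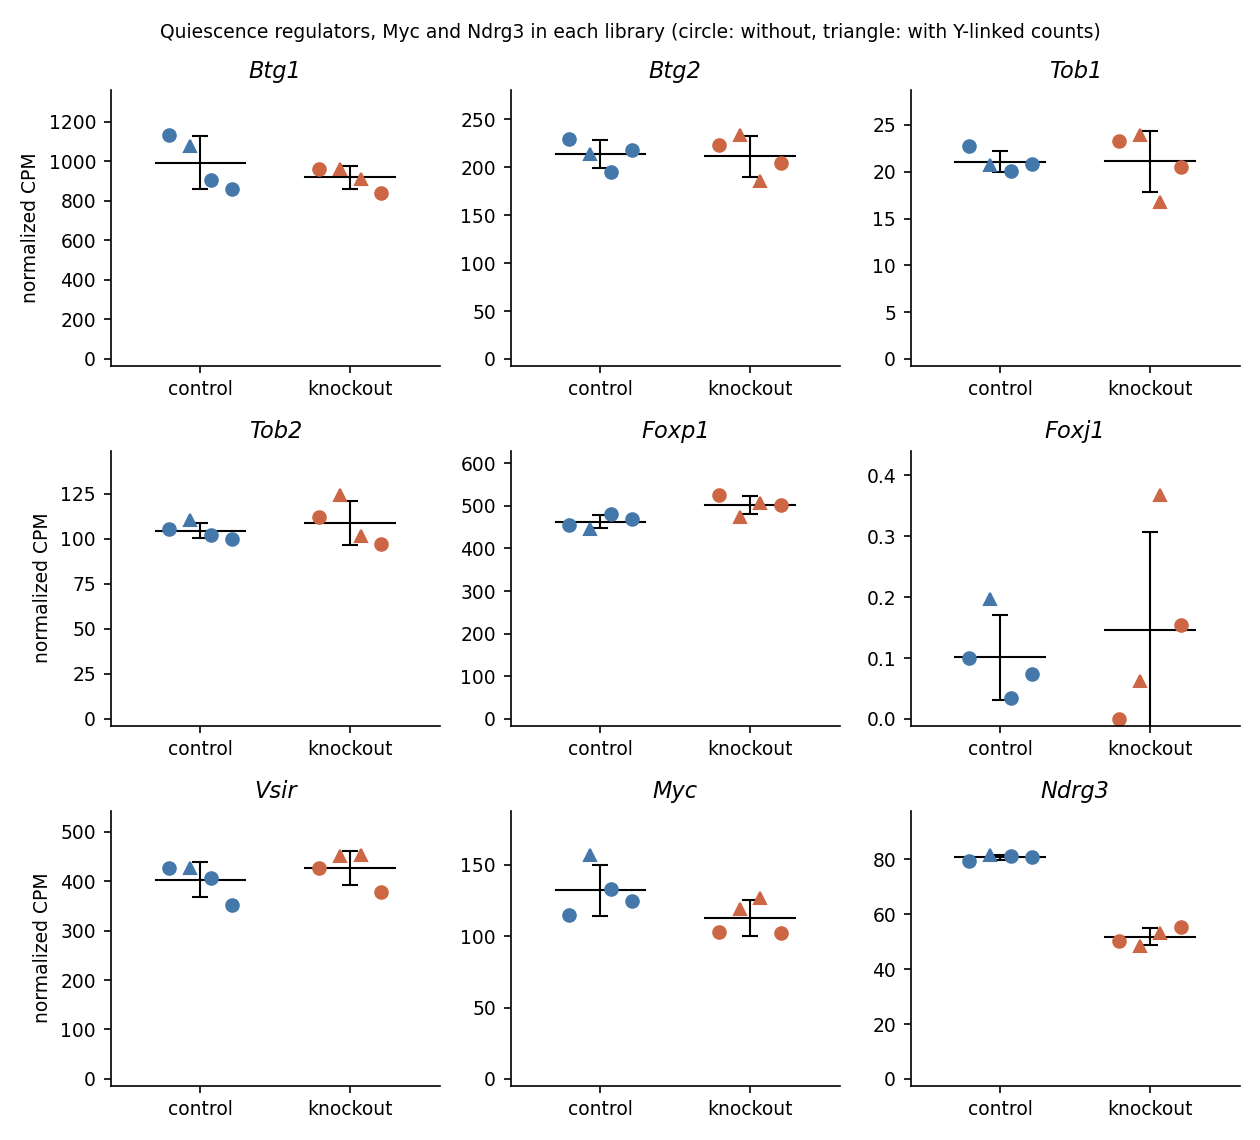
Normalized CPM of the 8 genes and of Ndrg3 in each library, with replicates 1 to 4 from left to right in each group, the group mean as a horizontal line and the SD as a bar (n = 4). Triangles are libraries with Y-linked counts; the groups separate for Ndrg3 (79.3 to 81.5 against 48.4 to 55.3 CPM) and overlap in the other panels.

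The family taken with its partners, in a list that includes Btg1, Btg2, Tob1 and Tob2, gave a like result. Of 23 genes of the BTG/TOB family and the CCR4-NOT and other deadenylase complexes, 22 were tested and none was called in either direction, with a median log2 fold change of -0.01 beside -0.00 over all tested genes. Btg4 was at 0 in every library. The poly(A)-binding protein gene Pabpc1, the highest of the list by TPM, stood at 1807 ± 135 CPM in control and 1741 ± 75.2 CPM in knockout libraries (SD, n = 4; adjusted p = 0.841, edgeR). At an unadjusted p under 0.05 there were 2 of the 22, 1 higher and 1 lower, against 10.9% of all tested genes. Groups did not overlap for 1 of the 22, against 7.04% of all tested genes. This was Parn, a poly(A)-specific ribonuclease singled out after its values were seen (60.9 to 68.3 against 54.0 to 59.0 CPM; log2 fold change -0.17, adjusted p = 0.226, edgeR).

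Of the forkhead factors, Foxp1 (ENSMUSG00000030067.17, chr6:98925338-99522721) stood at 454, 446, 481 and 469 CPM in control libraries. In knockout libraries it stood at 525, 475, 506 and 501 CPM. Of the 4 knockout libraries 3 lay above all controls and only replicate 2 fell within their range. The fold was 1.08 (95% interval 1.00 to 1.17; unadjusted p = 0.0414, adjusted p = 0.437, edgeR; exact permutation p = 0.0571, 2-sided). The log2 fold change of 0.12 was below the smallest among the 168 called genes, 0.21. Foxp1 shares bases on the same strand with Gm20696, a gene counted at 826 to 2489 in these libraries, and how reads in shared exons were assigned was not given in the sources used here.

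Foxj1 (ENSMUSG00000034227.7, chr11:116330704-116335399), better known as the regulator of motile cilia, was barely detected. Its raw counts were 3, 4, 1 and 2 in control and 0, 2, 11 and 5 in knockout replicates 1 to 4. In 6 of the 8 libraries the count was under 5, beside a floor of 3 counts (0.0918 to 0.142 CPM) that covers counting error only. Foxj1 did not pass the filter on low counts, and without the filter its log2 fold change of 0.59 had a 95% interval of -0.96 to 2.13, so that a difference was not detectable at this depth. Markers of thymic epithelium and ciliated cells summed to 2.41 to 3.34 CPM in control and 1.54 to 3.17 CPM in knockout libraries.

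Of the 17 forkhead genes listed, 13 were tested and none was called, with a median log2 fold change of 0.01. Foxo1, which sustains homing and IL-7 receptor genes in naive T cells, stood at 539 ± 33.1 CPM in control and 599 ± 24.8 CPM in knockout libraries (SD, n = 4; log2 fold change 0.15, adjusted p = 0.342, edgeR). Foxk1, also among the highest of the list by TPM, stood at 418 ± 23.1 and 396 ± 29.6 CPM (adjusted p = 0.708, edgeR). At an unadjusted p under 0.05, 3 of the 13 were higher and none was lower, and the third beside Foxo1 and Foxp1 was Foxp3, the regulatory T cell factor, named after its values were seen (3.45 ± 0.731 and 4.97 ± 1.21 CPM). These 3 of 13 stand beside 10.9% of all tested genes at that p in either direction. Of the other CD4 lineage markers, Il2ra ran from 2.60 to 6.06 CPM in control and from 4.76 to 9.35 CPM in knockout libraries, whereas Cd4 (0.668 and 0.564 CPM), Cd40lg (1.18 and 0.985 CPM) and Zbtb7b (0.216 and 0.104 CPM) had lower means in the knockout, none of them called. Their part in the Foxp3 level was not tested.

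Vsir (ENSMUSG00000020101.14, chr10:60346851-60372684) stood at 427, 427, 406 and 352 CPM in control libraries. In knockout libraries it stood at 427, 450.1, 452 and 378 CPM. Replicate 4 was the lowest library in each group, and 3 of the 4 knockout libraries lay above every control, 1 of them by less than 1 CPM. The fold was 1.06 (95% interval 0.951 to 1.18; adjusted p = 0.729, edgeR). In a list of 14 genes, made up of Vsir itself, VISTA's partners and other checkpoints, 11 were tested and none was called (median log2 fold change 0.01). At an unadjusted p under 0.05 there were 2 of the 11, against 10.9% of all tested genes, both higher and both named after their values were seen. Cd160, a receptor of cytotoxic cells, ran from 24.2 to 31.2 CPM in control and from 32.5 to 41.4 CPM in knockout libraries (log2 fold change 0.33, adjusted p = 0.121, edgeR), and it was called with DESeq2 (adjusted p = 0.0420) and without a filter on low counts. The inhibitory receptor gene Btla ran from 78.6 to 95.8 and from 90.2 to 106.7 CPM (log2 fold change 0.19, adjusted p = 0.290, edgeR). Selplg, which encodes the VISTA ligand PSGL-1, stood at 626 ± 32.9 and 643 ± 21.8 CPM, and Lgals9, which encodes galectin-9, at 142 ± 13.0 and 133 ± 7.97 CPM (SD, n = 4).

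Myc (ENSMUSG00000022346.14, chr15:61985391-61990374), the counterpart of these regulators, had the largest estimated change of the 7 tested genes. It stood at 115, 157, 133 and 124 CPM in control libraries. In knockout libraries it stood at 103, 119, 127 and 102 CPM. Both knockout libraries without Y-linked counts lay below every control, and the other pair fell within the control range. The fold was 0.854 (95% interval 0.736 to 0.991; unadjusted p = 0.0394, adjusted p = 0.428, edgeR; exact permutation p = 0.143, 2-sided).

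The Myc values were also compared within each class of libraries. Among libraries with Y-linked counts, the control stood at 157 CPM and the knockouts at 119 and 127 CPM, a log2 difference of -0.35. Among libraries without them, the 3 controls ran from 115 to 133 CPM and the pair of knockouts from 102 to 103 CPM, a log2 difference of -0.27. The groups separated within each class, but the class with Y-linked counts held 1 control, so its separation rests on that library. Classes this small can separate easily, and the share of all tested genes that separate in both was not computed. The separation is therefore given as a description. Foxp1, the other member at an unadjusted p under 0.05, separated in the same way, in the other direction. It stood at 446 against 475 to 506 CPM with Y-linked counts and at 454 to 481 against 501 to 525 CPM without them. Its log2 differences were 0.14 and 0.13. With the presence of Y-linked counts as a covariate, Myc was called (log2 fold change -0.30, adjusted p = 0.00603, edgeR), in a fit that called 2.99% of tested genes. Without control replicate 2, the only control with Y-linked counts and the one with the highest Myc, the log2 fold change was -0.14 (adjusted p = 0.682, edgeR). None of the other 6 tested genes was called with the covariate.

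**Figure D3:**
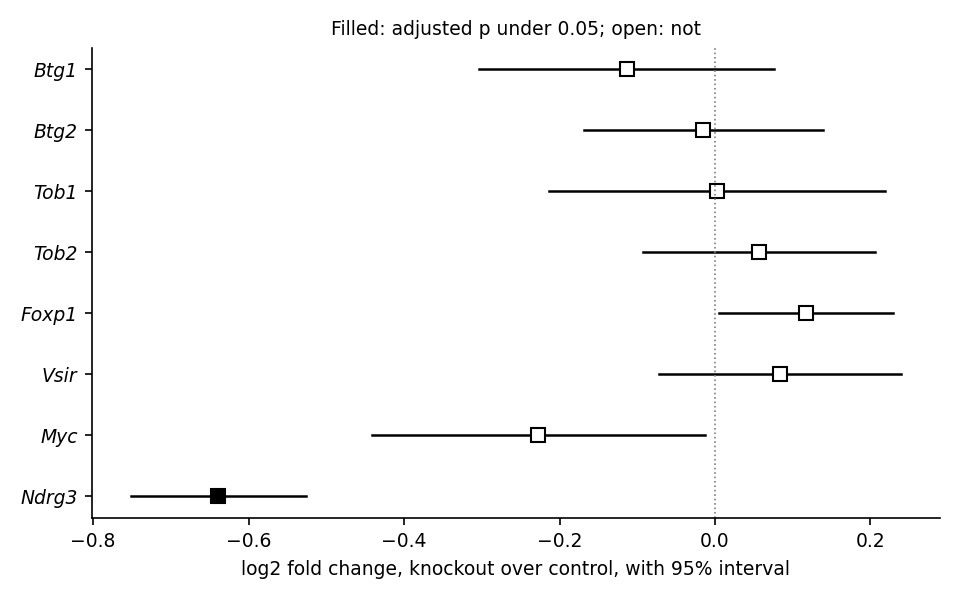
Log2 fold change of knockout over control (square) with its 95% interval (line) for the 7 tested genes and Ndrg3, from the edgeR fit without a covariate. Ndrg3, at -0.64, is the only filled square; the intervals of Foxp1 (0.01 to 0.23) and Myc (-0.44 to -0.01) lie to either side of 0 before adjustment, and the other 5 cross it.

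The balance between each regulator and Myc was also computed in each library as a log2 ratio of normalized CPM, as a description without a test. For Foxp1 it ran from 1.51 to 1.99 in control and from 1.99 to 2.35 in knockout libraries, with a difference of means of 0.34 and the highest control just under the lowest knockout. The difference was 0.31 for Vsir, 0.28 for Tob2, 0.22 for Tob1, 0.21 for Btg2 and 0.12 for Btg1. All 6 ratios were higher on average in the knockout, and they all share the Myc value in their denominator.

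The genes around Myc were not called either. In the MYC, MAX and MXD network, Myc included, 12 of 14 genes were tested with a median log2 fold change of -0.02. Max, the obligate partner of MYC, stood at 104 ± 6.85 CPM in control and 95.7 ± 5.28 CPM in knockout libraries (SD, n = 4; adjusted p = 0.466, edgeR), and Mxd4, which competes with MYC for MAX, at 401 ± 2.67 and 379 ± 24.7 CPM (adjusted p = 0.624). Of 30 MYC-responsive growth genes all were tested and none was called, none of them at an unadjusted p under 0.05 either. Their log2 fold changes were negative in 26 of 30 genes with a median of -0.09, beside 51.2% negative over all tested genes. Genes of such a list can vary together, so their signs are not independent, and the count was not tested. The summed level of the list overlapped between the groups, at 4914 to 5811 CPM in control and 4719 to 5448 CPM in knockout libraries. The nucleolar gene Npm1 stood at 353 ± 27.2 and 344 ± 32.0 CPM, the D-type cyclin gene Ccnd2 at 1651 ± 158 and 1549.9 ± 145 CPM, and the lactate dehydrogenase gene Ldha at 399 ± 38.9 and 409 ± 28.2 CPM.

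Proliferation genes were not called in any of 22 tested, against 1.15% of all tested genes. A negative log2 fold change was found for 21 of the 22 (median -0.14), beside 51.2% of all tested genes. This count was likewise not tested. The summed level of the list was 2124, 2315, 2061 and 2219.9 CPM in control replicates 1 to 4. It was 1972, 2217, 1599 and 2089 CPM in the knockouts. Knockout replicate 3, with the lowest sum, was also the library with the least Btg2 and Tob1. Mcm3, a subunit of the replicative helicase, stood at 206 ± 17.4 and 183 ± 16.4 CPM (SD, n = 4; adjusted p = 0.404, edgeR), Mcm5 at 206 ± 13.1 and 185 ± 18.8 CPM, and the clamp gene Pcna at 177 ± 18.0 and 161 ± 22.0 CPM.

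Other genes that naive T cells need for quiescence or upkeep were likewise close to even as a list. All 30 were tested, none was called, and 15 had a log2 fold change on either side of 0 (median -0.00). The highest by TPM were the T cell factor gene Tcf7 (1246 ± 59.2 and 1259 ± 37.7 CPM), Ikzf1, which encodes Ikaros (1071 ± 48.5 and 1063 ± 38.5 CPM), and Ets1 (1719 ± 184 and 1776 ± 90.8 CPM). At an unadjusted p under 0.05 there were 4 of 30, against 10.9% of all tested genes, which are named here after their values were seen. Foxo1 was higher, and Klf2, Zfp36 and Stk11 were lower, with log2 fold changes of -0.26, -0.19 and -0.11 and adjusted p of 0.130, 0.102 and 0.404 (edgeR). Klf2 keeps T cells resting and able to leave the thymus, and Zfp36 destabilizes cytokine messages. With the Y-linked covariate both were called lower, in a fit that called 2.99% of tested genes. Their log2 fold changes there were -0.28 and -0.22 (adjusted p = 0.0323 and 0.0161, edgeR). Zfp36 was also called lower with DESeq2 (adjusted p = 0.0321), and Klf2 without a filter on low counts (adjusted p = 0.0207, edgeR). Groups did not overlap for 2 of the 30, against 7.04% of all tested genes. These were Zfp36 (87.7 to 96.1 against 75.2 to 80.9 CPM) and Dicer1, named after its values were seen (164 to 174 against 175 to 190 CPM).

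Btg2 and Myc are themselves induced within minutes of T cell stimulation, and 20 other immediate-early genes were listed. Of these 19 were tested and 3 were called, against 1.15% of all tested genes. Klf6 rose and Fosl2 and Egr1 fell, with a median log2 fold change of -0.12 for the list. Klf6, a zinc finger factor, ran from 40.2 to 50.4 CPM in control and from 59.7 to 65.8 CPM in knockout libraries (log2 fold change 0.43, SE 0.0708, adjusted p = 0.00627, edgeR). Egr1, a factor induced by receptor signalling through ERK, ran from 181 to 237 CPM in control and from 132 to 170.03 CPM in knockout libraries (log2 fold change -0.43, SE 0.0889, adjusted p = 0.0422, edgeR). The AP-1 gene Fosl2 ran from 59.9 to 69.4 and from 47.7 to 53.8 CPM (log2 fold change -0.30, SE 0.0602, adjusted p = 0.0252, edgeR). The 3 highest of the list by TPM were not called: the AP-1 gene Jund stood at 439 ± 42.8 and 468 ± 32.6 CPM, the inhibitor of NF-kB gene Nfkbia at 125 ± 9.55 and 128 ± 2.59 CPM, and the phosphatase gene Dusp2 at 131 ± 13.3 and 115 ± 10.6 CPM (SD, n = 4). With the Y-linked covariate, in a fit that called 2.99% of tested genes, Dusp2 and Ier2 were also called lower. Their log2 fold changes there were -0.24 and -0.31 (adjusted p = 0.0219 and 0.0123, edgeR), and Ier2 is named after its values were seen. Klf6 was called with each library left out in turn. Fosl2 lost its call without control replicate 1 or 3 or knockout replicate 1, 3 or 4, and Egr1 kept its call only without control replicate 4 or knockout replicate 1.

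Btg2 is also a target of p53, and p53-responsive genes gave 3 calls among 16 tested of 18, all higher, against 0.793% of all tested genes called higher, with a median log2 fold change of 0.10. Zmat3, an RNA-binding protein gene, ran from 46.0 to 55.7 CPM in control and from 59.1 to 71.1 CPM in knockout libraries (log2 fold change 0.38, adjusted p = 0.0184, edgeR). Bbc3, which encodes the death-promoting protein PUMA, ran from 8.70 to 12.9 and from 14.8 to 17.1 CPM (log2 fold change 0.56, adjusted p = 0.0348, edgeR). Phlda3, an inhibitor of AKT, was higher at low counts, from 0.256 to 0.934 and from 1.69 to 2.52 CPM (log2 fold change 1.97, adjusted p = 0.00532, edgeR). The 3 genes of the list highest by TPM, Trp53inp1 (447 ± 52.5 and 446 ± 30.2 CPM), Ddit4 (149 ± 20.1 and 134 ± 23.1 CPM) and Ccng1 (95.6 ± 6.54 and 102 ± 3.57 CPM), were not called. Nor were Fas and Mdm2, named after their values were seen, with log2 fold changes of 0.28 and 0.04 (adjusted p = 0.0811 and 0.823, edgeR). Fas was called higher with DESeq2 (adjusted p = 0.0208) and with the Y-linked covariate (adjusted p = 0.0186, edgeR). Of the 16 tested genes, 13 had a positive and 3 a negative log2 fold change. Phlda3 was called with each library left out in turn, Zmat3 lost its call without control replicate 3 or 4 or knockout replicate 1 or 3, and Bbc3 kept its call only without control replicate 2 or 4. Whether Btg2 differed in its response from these genes was not tested.

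**Figure D4:**
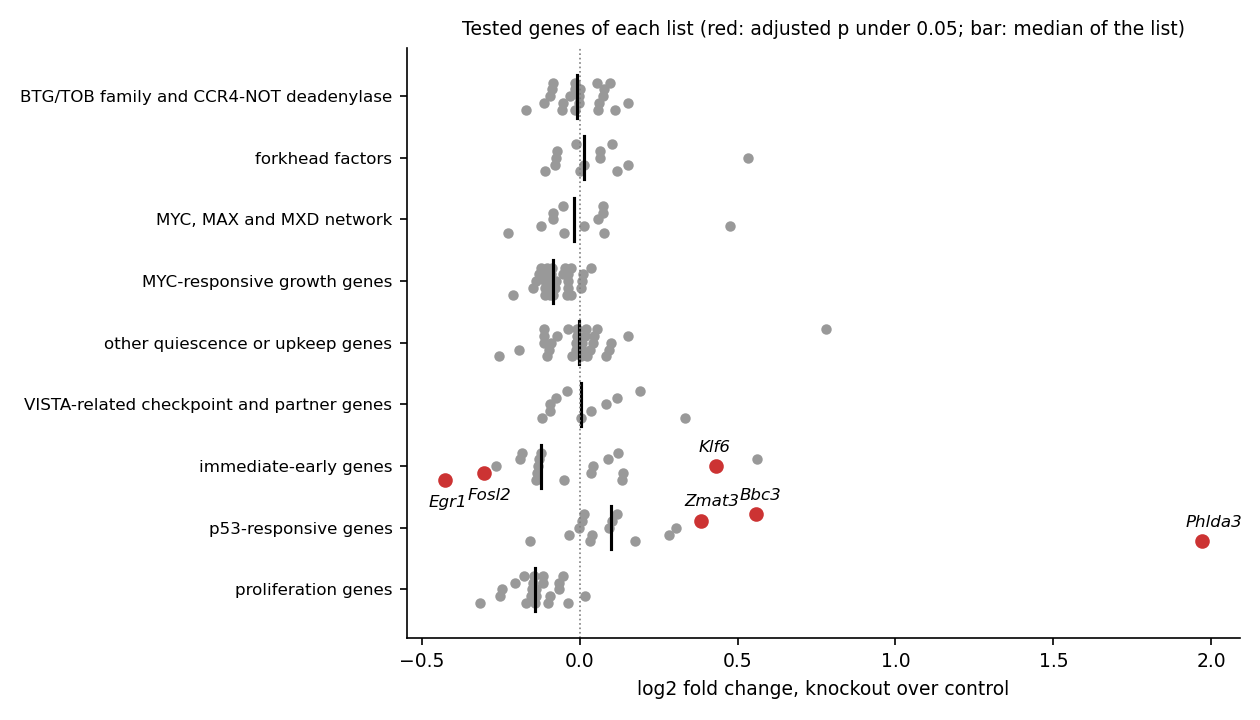
Log2 fold change of knockout over control for the tested genes of 9 lists, 1 symbol per gene, with the median of each list as a bar and genes past an adjusted p of 0.05 in red. The 6 called genes lie in the immediate-early and p53-responsive lists. To the left of 0 lie 21 of 22 proliferation genes, beside 51.2% of all tested genes.

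Over the 8 libraries, Btg2 and Tob1 varied together. Of 21 pairs among the 7 genes, this was the only one to pass adjustment (Pearson r = 0.929, exact permutation p = 0.00015, adjusted p = 0.00312; Spearman rho = 0.976, exact permutation p = 0.00040). With the group means removed r was 0.930, and without the 2 libraries farthest from the median of Btg2 it was 0.888. Within the classes with and without Y-linked counts there were 3 and 5 libraries, under the minimum of 6 kept here for a correlation, and no value was computed. Tob1 ranked 4th in likeness to Btg2 among 12674 genes, and Btg2 ranked 8th in likeness to Tob1. The Btg1 and Btg2 pair had r = 0.461 and the Tob1 and Tob2 pair r = 0.648, with adjusted p of 0.573 and 0.410 from exact permutation.

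**Figure D5:**
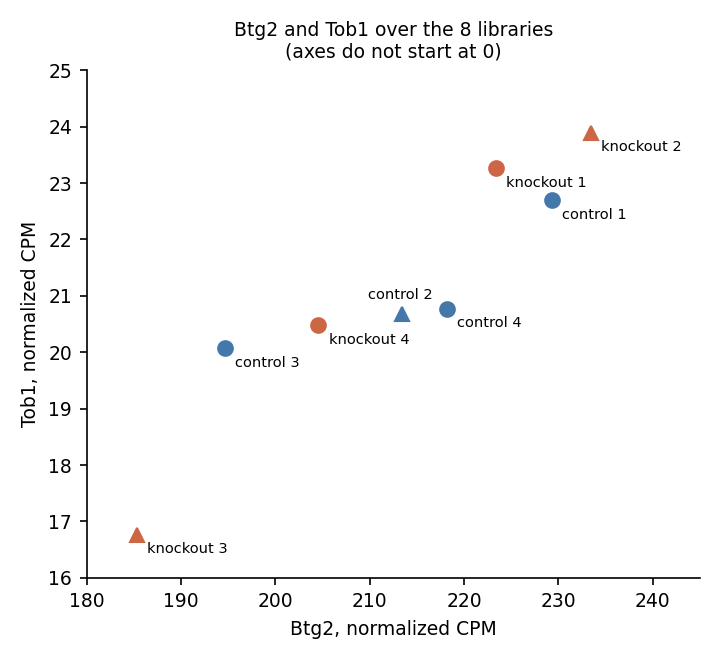
Normalized CPM of Btg2 (x axis) and Tob1 (y axis) in each library, control in blue and knockout in orange, triangles with Y-linked counts; neither axis starts at 0. Knockout replicate 3 is lowest on both axes (185 and 16.8 CPM) and knockout replicate 2 is highest on both (233 and 23.9 CPM).

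The genes most like each member over the 8 libraries, by Pearson r of log2 CPM with a mean of at least 1 CPM, differed from member to member. For Btg1 they were Lipa, Nlrx1 and Trib2 (r = 0.980, 0.980 and 0.974), and for Btg2 they were Akap2, Zscan29 and Clic4 (0.969, 0.958 and 0.938). For Tob1 they were Aspm, Iqgap3 and Zfp771 (0.952, 0.950 and 0.946), and for Tob2 they were Ddx42, Ets2 and Ndufa6 (0.964, 0.940 and 0.926). For Foxp1 they were Usp33, Rhoh and Zmynd11 (0.992, 0.976 and 0.974), for Vsir they were Por, Kbtbd7 and Foxo3 (0.985, 0.978 and 0.964), and for Myc they were Gpc1, Hars and Cant1 (0.973, 0.972 and 0.971). These values are the highest of 12674 over 8 libraries and are given as a description.

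The immediate-early genes other than the members summed to 1485.6 to 1891 CPM over the libraries, and each member was compared with that sum. None of the 7 relations passed adjustment. Btg1 had the highest (Pearson r = 0.803, exact permutation p = 0.0168, adjusted p = 0.118; Spearman rho = 0.857, exact permutation p = 0.0107, adjusted p = 0.0750), with r = 0.652 without the 2 libraries farthest from the median sum. Vsir had r = 0.713 (exact permutation p = 0.0467, adjusted p = 0.150; rho = 0.548) and 0.915 without those libraries. Myc had r = 0.679 (exact permutation p = 0.0642) and -0.16 without control replicate 2 and knockout replicate 4, so that its relation rested on them, and Btg2 had r = 0.179.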

How the data were processed

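RNA of sorted CD8SP TCRb+ MHC-I high thymocytes from 4 Ndrg3 control and 4 Ndrg3 knockout mice was measured with stranded total RNA libraries, and groups were taken from the sample labels. Trimming was by cutadapt, alignment by STAR against GRCm38.p4 and counting by featureCounts, and the authors deposited raw counts per gene. The settings for strand and for reads with several matches are not given in the sources used here. Positions and exonic lengths for TPM came from GENCODE M21 (GRCm38), which matched 98.5% of genes.

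Low counts were removed with edgeR's filterByExpr, given the groups, TMM factors were applied, and genes were tested in edgeR 4.0.16 (robust glmQLFit and glmQLFTest, R 4.3.3, limma 3.58.1), without a covariate, with Benjamini-Hochberg adjustment over all 14633 tested genes and a threshold of 0.05. Single values were compared by exact permutation over 70 splits. Alternatives were RLE scaling, other filters, DESeq2 1.42.0, the replicate number as a block, a Y-linked covariate and leaving out each library. Upstream sequences were from RefSeq. The 8 genes, the gene lists and the markers were chosen with earlier results of these data known. All 8 members were named, with every called gene and the 3 tested genes of each list with the highest TPM and the 3 genes most like each member; other genes are marked in the text. The edgeR fit was tested on simulated data first.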

Additional observations from a re-analysis of the deposited data

How the results depend on the processing

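Over 14 alternatives, Foxp1 kept a positive log2 fold change (0.09 to 0.14), as did Vsir (0.02 to 0.14), and Btg1 and Myc kept negative ones (-0.18 to -0.04 and -0.30 to -0.14). The estimates of Btg2, Tob1 and Tob2 lie close to 0 and changed sign, which carries no call. Leaving out 1 library at a time gave -0.0653 to 0.0437 for Btg2, -0.0626 to 0.0977 for Tob1 and -0.0135 to 0.106 for Tob2, and the replicate block gave -0.0086 for Tob1. Myc alone was ever called, with the replicate block (log2 fold change -0.22, adjusted p = 0.0101, edgeR) and with the Y-linked covariate (-0.30), so that 1 member was called in each of those fits against 0 otherwise. Its adjusted p ran from 0.00603 to 0.724 over the alternatives.

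The number of genes called was 168 in the main analysis, 274 without a filter on low counts, 309 with DESeq2, 437 with the Y-linked covariate, 800 with the replicate block and 90 to 158 without 1 library. In the immediate-early list 5 genes were called with the replicate block and with the Y-linked covariate, and 1 to 3 without 1 library. In the p53-responsive list 1 to 3 were called without 1 library. Why these counts moved was not tested. DESeq2 called 0 members (Myc adjusted p = 0.358), and at an unadjusted p under 0.05 edgeR gave 2. Labels number the replicates 1 to 4 in both groups and do not say whether equal numbers are pairs. In their deviations from the group means, same-numbered libraries correlated by -0.055 to 0.415 and differently numbered ones by -0.328 to 0.157. In each group 3 of 4 libraries correlated best with their own number, and the pair numbered 3 correlated by -0.055. Whether the libraries are paired was therefore not settled, and the fits without the block would leave out any pairing. Results with the replicate block are given in this section only.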
